A study of Drosophila melanogaster with 28 samples.

Results

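The RNA bound by ME31B in 1–2 hr embryos of Drosophila melanogaster was measured by RIP-seq, in which the RNA recovered with an immunoprecipitated protein is sequenced beside the RNA of the lysate it came from, the input. A gene was included when it had more than 0.5 FPKM in both the 1–2 hr ME31B immunoprecipitate and the 1–2 hr input, which held for 6954 of 16853 fly genes. FPKM is an RNA level scaled for transcript length and library size. The log2 binding of a gene was the log2 ratio of its immunoprecipitate FPKM to its input FPKM, less the same ratio of the median gene. A value of 0 therefore marks the median gene, and a value of 1 a gene bound 2-fold above it. Among the genes left out, 357 missed the minimum in the immunoprecipitate alone, 139 in the input alone and 9403 in both, so genes of low level that were hardly recovered are not counted below.

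Both libraries came from embryos of the eGFP-ME31B strain, in which ME31B carries a green fluorescent tag, taken 1–2 hr after egg-laying. Monoclonal anti-GFP antibodies recovered the tagged protein, and the input had no antibody. They were set beside the immunoprecipitates and inputs of the same strain at 0–1 hr, 2–3 hr, 3–4 hr and 4–5 hr, and beside w1118 embryos, in which the cytoplasmic poly(A)-binding protein PABP was recovered with synthetic antibody fragments. Each condition was 1 library of many pooled embryos, so differences are given with their counting error and with no p-value. The ratio is not set against a control immunoprecipitation, which was not analysed here.

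ME31B is a DEAD-box RNA helicase that, together with Trailer hitch (TRAL), Cup and the cap-binding protein eIF4E, represses the translation of maternal mRNAs. The mother loads the egg with these mRNAs, and the early embryo, a syncytium of rapidly dividing nuclei, lives on them while its own genome is nearly silent. During the maternal-to-zygotic transition, many maternal mRNAs are destroyed and the zygotic genome is switched on.

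The estimated depth was 13.8 M reads in the 1–2 hr immunoprecipitate and 13.2 M in its input, within 11.4 to 14.5 M over the 10 libraries of the strain. At these depths, the log2 binding of a transcript of 1500 nt has a 95% counting interval of ± 0.30 at 10 FPKM in both libraries, ± 0.43 at 5 FPKM and ± 1.35 at 0.5 FPKM. The intervals cover counting error only. Of the maternal and germ plasm marker genes, 9 of 9 passed the minimum, with 9694 FPKM in sum in the immunoprecipitate and 6265 FPKM in the input. None of 14 eggshell, 6 muscle, 4 nerve, 5 cuticle and 7 adult marker genes did, and the input sums of these 5 sets were 0.404, 3.57, 0.226, 0.141 and 0.189 FPKM. Of 6 zygotic blastoderm genes, 2 passed, nullo and slam, and the input sum of the 6 was 26.7 FPKM. That sum was 30.8 FPKM at 0–1 hr and 115.9 FPKM at 2–3 hr. The maternal input sum was 7462 and 3972 FPKM at these ages. Most of the blastoderm sum at 0–1 hr and 1–2 hr came from slam. Its input level was lower at 1–2 hr, 22.3 FPKM against 29.96 FPKM an hour earlier. By contrast, nullo, eve, ftz, sna and twi were each higher in the 1–2 hr input than in the 0–1 hr input. The nullo level went from 0.24 to 2.96 FPKM, whereas eve, ftz, sna and twi stayed below 0.5 FPKM. The markers show a mostly maternal sample and do not by themselves fix its age at 1–2 hr. In the other strain, the 1–2 hr input stood apart. It had a summed fly level of 125101 FPKM, and the 0–1 hr w1118 input was next with 302478 FPKM, whereas the libraries of the eGFP-ME31B strain lay between 812244 and 1089180 FPKM, so the relations that rest on the 1–2 hr w1118 input are set beside values from other libraries, an alternative chosen after seeing the data.

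For 1239 members (17.8%), the annotation has a second gene on that strand at the same place, so that their reads could come from both and their values are less certain. Among the genes named below are CG34001, osk, cup, pAbp, Edc3, twin, brat, grp, sti, RNaseP:RNA, Mi-2, CG1677, cnn, Atf6, PIP4K, CG45086, Stat92E, Sry-alpha, scrib, squ, qin, Cdk2, eIF6, snRNA:U4atac:82E, snRNA:LU and the snoRNAs other than snoRNA:U3:9B. nos and eIF4G had no annotation entry of the same name, so no position or length is given for them.

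Binding at 1–2 hr was skewed to low values. The lower and upper quartiles of log2 binding were −0.99 and 0.73, while the 5th and 95th percentiles were −2.72 and 1.47. The span between these percentiles was 10.1-fold at 0–1 hr, 18.2-fold at 1–2 hr and 23.2-fold at 2–3 hr. At 1–2 hr, 1095 genes (15.7%) were bound at least 2-fold above the median gene and 1727 (24.8%) at least 2-fold below it. These shares over all members are the background for the counts of gene groups that follow. Every value is relative to the median gene. Act5C, an actin gene, lay at −1.31, so that centred on it each value would be higher by that much. By chromosome, the median was between −0.05 and 0.04 on X, 2L, 2R, 3L and 3R, and −0.32 over the 52 genes of chromosome 4.

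Binding differed by class of RNA. All 10 small nuclear RNAs (snRNAs), most of which act in the spliceosome, lay at least 2-fold below the median gene, with a median log2 binding of −4.36. Of 67 small nucleolar RNAs (snoRNAs), which guide the modification of ribosomal RNA, 56 (83.6%) lay as low, 0 lay 2-fold above, and the median was −2.45. Protein-coding genes made up 6630 members (95.3%), with a median of 0.01 and 15.6% above and 24.4% below the same limits. The 190 other non-coding RNAs had a median of 0.34, with 54 (28.4%) at least 2-fold above and 26 (13.7%) at least 2-fold below. With the w1118 input of the same age as divisor, the non-coding RNAs with names in CR had a median of −0.36, against 0.36 over 177 genes with the reported divisor. Only 64 of the 177 had PABP binding at 1–2 hr, which needs that input above the minimum. The 2 medians may thus rest on unlike sets of genes, and set and divisor cannot be told apart. Most snoRNAs are shorter than the fragment length taken here, 200 nt, which makes their FPKM uncertain, and 6 of the 67 shared a log2 binding of −0.12, so no counting interval is given for them. The 10 snRNAs had a median length of 178 nt, so their FPKM is uncertain in the same way.

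**Figure D1:**
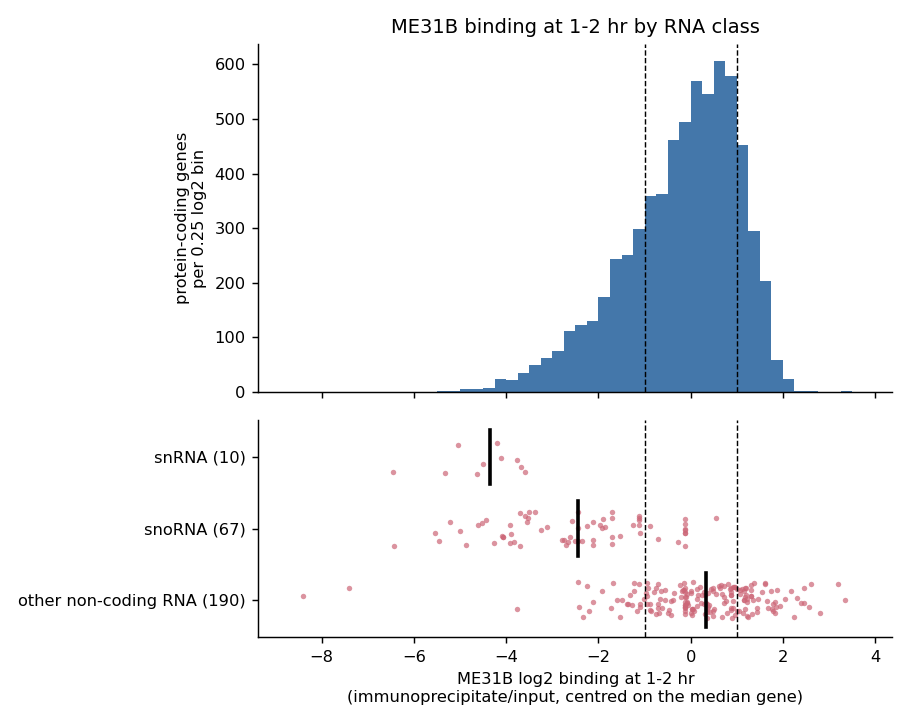
Histogram of log2 binding at 1–2 hr over 6630 protein-coding genes (upper panel, genes per bin) and the values of single snRNAs, snoRNAs and other non-coding RNAs (lower panel, 1 point per gene, bars at the medians, points spread vertically for clarity). Dashed lines mark 2-fold below and above the median gene; all 10 snRNAs lie left of −3.5, whereas the other non-coding RNAs centre on 0.34.

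The 10 most strongly bound genes, taken from those whose input reached 10 FPKM, were short transcripts of at most 1095 nt. CG34001 (chr3L:10631079-10634612 in dm6, plus strand) had 192.5 FPKM in the immunoprecipitate and 35.9 FPKM in the input, and its log2 binding of 2.37 was above that of 99.9% of members (interval 2.14 to 2.60). Arl4, a small GTPase of the ADP-ribosylation factor-like family (chr4:177348-179389, minus strand), had 647 FPKM in the immunoprecipitate and 131.5 FPKM in the input, a log2 binding of 2.25. CG6770 (chr2L:12045343-12046118, minus strand), the most abundant gene of this set, had 4398 FPKM in the immunoprecipitate and 903 FPKM in the input, a log2 binding of 2.23. The transcripts of these 3 genes are 587, 1095 and 776 nt long.

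CG1890, CG17977, CG42376, CG33228 and the non-coding RNA CR43496 followed, with log2 binding between 2.12 in CG33228 and 2.21 in CG1890. ORMDL, whose yeast relatives restrain sphingolipid synthesis, reached 2.16, with 314.9 FPKM in the immunoprecipitate and 68.0 FPKM in the input. The only regulator of the early embryo among these 10 was gnu (chr3L:14802380-14803360, minus strand, 2 exons), which encodes the activating subunit of the PNG kinase. It had 1051 FPKM in the immunoprecipitate and 228.5 FPKM in the input, a log2 binding of 2.15 (interval 2.08 to 2.22).

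The lowest values belonged to RNAs that work in the nucleus and the nucleolus. RNaseP:RNA (chr3R:31217364-31217662, minus strand), the RNA of the enzyme that trims transfer RNA precursors, had 38.8 FPKM in the immunoprecipitate and 12782.5 FPKM in the input. Its log2 binding of −8.42 was the lowest of all members. RNaseMRP:RNA, the related RNA that helps to process ribosomal RNA, had 50.2 FPKM in the immunoprecipitate and 8217 FPKM in the input, a log2 binding of −7.41. Then came snRNA:U4atac:82E of the minor spliceosome, at −6.46, the snoRNAs snoRNA:Psi28S-2179, snoRNA:U3:9B, snoRNA:Or-CD2 and snoRNA:Psi28S-1060, at −6.43, −5.55, −5.47 and −5.21, and snRNA:U2:34ABa at −5.32. The last of these was the most abundant, with 1022 FPKM in the immunoprecipitate and 39287 FPKM in the input.

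Of the 10 lowest genes, sti and Spt6 code for proteins. sti, the citron kinase of cytokinesis (chr3L:12507998-12514815, minus strand), had 0.85 FPKM in the immunoprecipitate and 32.6 FPKM in the input, a log2 binding of −5.32 (interval −5.66 to −4.97). Spt6, a transcription elongation factor (chrX:6267797-6274984, plus strand), had 1.46 FPKM in the immunoprecipitate and 55.5 FPKM in the input, a log2 binding of −5.31. The 6 next lowest protein-coding genes, chosen after their values were seen, were Mi-2, an ATPase that remodels chromatin, CG7372, Moca-cyp, crn, a splicing factor, CG1677 and kin17, at −5.16, −5.14, −4.88, −4.86, −4.86 and −4.79. Most of these transcripts are long, with 6084 nt in sti, 6166 nt in Spt6 and 6486 nt in Mi-2, but kin17 has 1453 nt.

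At the limit of 0.5 FPKM, the members just inside were CG9170 (0.501 FPKM in the immunoprecipitate, 4.65 FPKM in the input), CR45444 (0.502 and 2.65 FPKM) and CG7542 (0.786 and 0.502 FPKM). Just outside were CG10933 (0.499 FPKM in the immunoprecipitate, 2.57 FPKM in the input), Egfr (0.499 and 1.26 FPKM) and CG30156 (0.497 and 0.755 FPKM). Values this low carry the widest counting error of the set.

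The mRNAs of ME31B's own complex lay between −2.36 and 1.59. Of 12 genes of the complex and its partners, eIF-4E alone (8.33%, against 15.7% of all members) was at least 2-fold above the median gene, Edc3 and Patr-1 (16.7%, against 24.8%) were at least 2-fold below, and the median was 0.09. me31B itself had 3243 FPKM in the immunoprecipitate and 1717.5 FPKM in the input, a log2 binding of 0.86. eIF-4E, the cap-binding protein, had 1219.7 FPKM in the immunoprecipitate and 391.7 FPKM in the input, a log2 binding of 1.59. tral and cup, its partners in repression, lay near the median gene at 0.20 and −0.12. pAbp, which coats poly(A) tails, was at −0.40, and the Y-box protein gene yps at 0.21. Edc3, an enhancer of decapping, had 5.55 FPKM in the immunoprecipitate and 27.4 FPKM in the input, a log2 binding of −2.36, and Patr-1, the decapping activator called HPat, had 5.11 FPKM in the immunoprecipitate and 23.4 FPKM in the input, a log2 binding of −2.25.

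For the machines of mRNA decay, the genes named are mostly the highest and lowest of each list, picked by binding. At least 2-fold above lay 22.2% of decapping, 11.1% of CCR4-NOT and 27.3% of exosome genes, against 15.7% of all members. At least 2-fold below lay 33.3%, 22.2% and 18.2%, against 24.8%. Among 9 genes of decapping and 5′ decay, LSm1 (349.3 FPKM in the immunoprecipitate, 91.4 FPKM in the input) and LSm7 (384.3 and 125.6 FPKM), of the ring that activates decapping, had log2 binding of 1.88 and 1.56, and the median was −0.98. Within the CCR4-NOT deadenylase, Not11 had a log2 binding of 2.11 and the scaffold Not1 −2.42, twin, a catalytic subunit, was at −0.75, and the median of 9 genes was 0.36. The nuclear exosome helicase l(2)35Df, of 11 exosome genes, had 1.90 FPKM in the immunoprecipitate and 34.9 FPKM in the input, a log2 binding of −4.25, and its nuclear nuclease Rrp6 was at −2.96. The exosome core genes Rrp45 and Ski6 were at 1.56 and 1.21.

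Regulators of maternal mRNA were mostly bound below the median gene. Of 6 such genes, 5 lay below it, 3 of them at least 2-fold (50% of the list, against 24.8% of all members), and the median was −1.20. These are long transcripts, with a median of 8899 nt where annotated. Among the longest 5th of protein-coding genes, 3806 nt and more, the median was −1.04 and 51.2% lay at least 2-fold below. smg encodes an RNA-binding protein that directs the decay of maternal mRNA, and its own mRNA (chr3L:8990317-8997989, minus strand) had 29.3 FPKM in the immunoprecipitate and 200.8 FPKM in the input, a log2 binding of −2.83. pum and brat, which also repress mRNAs, were at −1.93 and −1.66. nos, which represses translation at the posterior pole, had 1169.7 FPKM in the immunoprecipitate and 660 FPKM in the input, and was above the median gene at 0.77.

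The germ plasm is the posterior cytoplasm that forms the germline, and the genes named from its list and the piRNA list are mostly their extremes. pgc, which silences transcription in the pole cells, had 3555 FPKM in the immunoprecipitate and 852 FPKM in the input, a log2 binding of 2.01 that 99.5% of members did not reach. osk, the organiser of germ plasm, had 651 FPKM in the immunoprecipitate and 809 FPKM in the input, a log2 binding of −0.37. aub, tud and qin, of the piRNA pathway and the polar granules, were at −1.63, −1.43 and −1.63, and the piRNA genes squ and del at 1.26 and 1.16. Over 9 germ plasm genes, 1 (11.1%) lay at least 2-fold above and 2 (22.2%) at least 2-fold below, and their median of −0.08 became 0.65 with the w1118 divisor. Over 18 piRNA genes, 4 (22.2%) lay above and 5 (27.8%) below. These shares are near those of all members, 15.7% and 24.8%.

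Of the maternal axis genes, trk, the ligand precursor of the terminal system, was highest at 1.32, with 19.6 FPKM in the immunoprecipitate and 7.58 FPKM in the input. exu, a factor of bicoid mRNA localization, was at 0.88, whereas bcd, the anterior determinant, was at −1.59 and fs(1)N at −1.94. grk and orb lay at the median gene, at −0.08 and −0.07. In the Toll-Dorsal pathway, the ligand gene spz and the protease gene gd were at 1.03 and 0.84, and the intracellular adaptor tub and kinase pll at −1.36 and −1.86.

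The cell-cycle genes named are likewise mostly the highest and lowest of their lists. All 3 PNG kinase genes were above the median gene, with gnu at 2.15, png at 0.83 and plu at 0.28. The mitotic cyclins were low: CycA had 182.5 FPKM in the immunoprecipitate and 850.2 FPKM in the input, a log2 binding of −2.27, and CycB had 228.0 FPKM in the immunoprecipitate and 831 FPKM in the input, a log2 binding of −1.92. CycB3 was lower still, at −2.55. Cdk2 and the maternal cyclin CycJ, by contrast, were at 1.36 and 1.30. Of 16 cyclin and CDK genes, 3 lay at least 2-fold above (15.7% of all members) and 5 at least 2-fold below (24.8%).

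Of 2 kinases that inhibit Cdk1, Myt1 was at 0.91 and Wee1 at −2.27. In the anaphase-promoting complex, its E2 enzyme vih and the maternal activator cort were at 1.30 and 0.93, while the activator fzy had 3.03 FPKM in the immunoprecipitate and 43.7 FPKM in the input, a log2 binding of −3.90. Of 16 replication genes, 12.5% lay at least 2-fold above and 25% at least 2-fold below, near the shares of all members, 15.7% and 24.8%. Their median was 0.05, and the genes named next are the extremes of the list. Orc6 and Orc2, of the origin recognition complex, were at 1.39 and 1.20, and Cdc6, which loads the helicase, at −2.53. Mcm7, a subunit of that helicase, had 4.13 FPKM in the immunoprecipitate and 108.05 FPKM in the input, a log2 binding of −4.76.

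Centriole genes ran from ana2, which starts centriole assembly, at 1.74 (61.4 FPKM in the immunoprecipitate, 17.7 FPKM in the input) and Sas-6 at 1.38 to cnn at −2.74 and ana1 at −3.11. Of 6 tubulin genes, 2 (33.3%) lay at least 2-fold above and 3 (50%) at least 2-fold below, against 15.7% and 24.8% of all members. The tubulins given with values are the 2 highest and 2 lowest. The maternal genes alphaTub67C and gammaTub37C were bound 2-fold or more above the median gene, at 1.03 and 1.34. The general genes betaTub56D and gammaTub23C were at −3.86 and −3.82, and betaTub56D had 90.5 FPKM in the immunoprecipitate and 1264 FPKM in the input. alphaTub84B and alphaTub84D lay between these 2 pairs. Of 14 actin, myosin and septin genes, 7 (50%, against 24.8%) lay at least 2-fold below and 1 (7.14%, against 15.7%) above. The last was tsr, the actin-severing protein cofilin, at 1.68 (9315 FPKM in the immunoprecipitate, 2801 FPKM in the input). Act5C, the cytoplasmic actin, had 433.3 FPKM in the immunoprecipitate and 1037.5 FPKM in the input, a log2 binding of −1.31, and the septin pnut was at −3.45.

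Genes of cell polarity and junctions were mostly low. Of 16, 15 lay below the median gene, 12 of them (75%, against 24.8% of all members) at least 2-fold, and the median was −1.40. arm, the beta-catenin, had 19.1 FPKM in the immunoprecipitate and 185.7 FPKM in the input, a log2 binding of −3.33, and scrib was at −3.12. veli, a scaffold protein gene, was the exception, with 504 FPKM in the immunoprecipitate and 168.2 FPKM in the input, a log2 binding of 1.53. The median transcript length of the list was 5234 nt.

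The genes named from the heat shock, histone variant, apoptosis and CTLH lists are again the extremes of each. Hsp26 had 9951 FPKM in the immunoprecipitate and 2897 FPKM in the input, a log2 binding of 1.73, and Hsp27 was at 1.51, but Hsp23, also a small heat shock gene, and the constitutive chaperone Hsc70-4 were at −1.67 and −1.08. Histone variants ran from cid, the centromeric histone, at 1.47 and the maternal linker histone BigH1 at 0.92 to His3.3B at −1.91 and His4r at −3.58. Among apoptosis genes, Debcl, of the Bcl-2 family, was highest at 1.20, and the caspase genes Drice and Dronc were at −1.07 and −1.50. Subunits of the CTLH ubiquitin ligase ranged from RanBPM at 0.26 to CG7611 at −3.35.

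The 2 kinds of ribosome stood apart. Of 84 genes for cytosolic ribosomal proteins, 0 lay at least 2-fold above and 37 (44.0%, against 24.8% of all members) at least 2-fold below the median gene, 75 lay below it, and the median was −0.84. RpLP1, of the ribosomal stalk, had 387.8 FPKM in the immunoprecipitate and 3482 FPKM in the input, a log2 binding of −3.22. RpL41 was at −2.65, and the highest, RpL34a and RpL38, were at 0.73 and 0.62. Of 75 genes for mitochondrial ribosomal proteins, 33 (44%, against 15.7% of all members) lay at least 2-fold above and 4 at least 2-fold below, and the median was 0.97. mRpL12 (372.0 FPKM in the immunoprecipitate, 106.0 FPKM in the input) and mRpS2 were at 1.76 and 1.74, whereas mRpL51 and mRpL36 were at −1.54 and −1.22. Both lists are short transcripts, with a median of 877 nt in the cytosolic and 790 nt in the mitochondrial one.

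Other housekeeping lists were nearer to the median gene. The 68 nuclear genes of the respiratory chain had a median of 0.01, with ND-13B of complex I at 1.75 and Cyt-c-p, cytochrome c, at −2.51. The 31 proteasome genes had a median of 0.39, with the deubiquitinase Rpn11 at 1.41 and Prosbeta1 at −1.26. Of 26 translation initiation factor genes, 4 (15.4%) lay at least 2-fold above and 10 (38.5%) at least 2-fold below. The shares of all members were 15.7% and 24.8%. eIF6, eIF-5A and eIF4AIII were at 1.54, −2.76 and −3.51. eIF4G, the scaffold between cap and poly(A) tail, was at −0.31. The 23 aminoacyl-tRNA synthetase genes had a median of −0.03.

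Activators of the zygotic genome and cellularization genes were mostly bound below the median gene. Of 5 activators of the zygotic genome, 4 (80%, against 24.8% of all members) lay at least 2-fold below the median gene, and the median was −2.13. Their median transcript length was 4200 nt. Among the longest 5th of protein-coding genes, 3806 nt and more, 51.2% lay as low. Stat92E, the transcription factor of the JAK/STAT pathway, had 4.57 FPKM in the immunoprecipitate and 49.9 FPKM in the input, a log2 binding of −3.50, and Clamp was at −2.24. Of 8 cellularization genes, 4 (50%, against 24.8% of all members) lay at least 2-fold below. Among them were slam (4.76 FPKM in the immunoprecipitate, 22.3 FPKM in the input) at −2.28 and Sry-alpha at −2.99. Gap genes were nearer to 0, with hb at 0.67, kni at 0.53 and Kr at −0.15, but kni and Kr had under 3 FPKM in both libraries. With the w1118 divisor, the median of the gap and terminal genes measured was −1.47, against 0.28 over 8 genes. Only 5 of the 8 had PABP binding at 1–2 hr, which needs that input, so these medians too may rest on unlike sets.

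**Figure D2:**
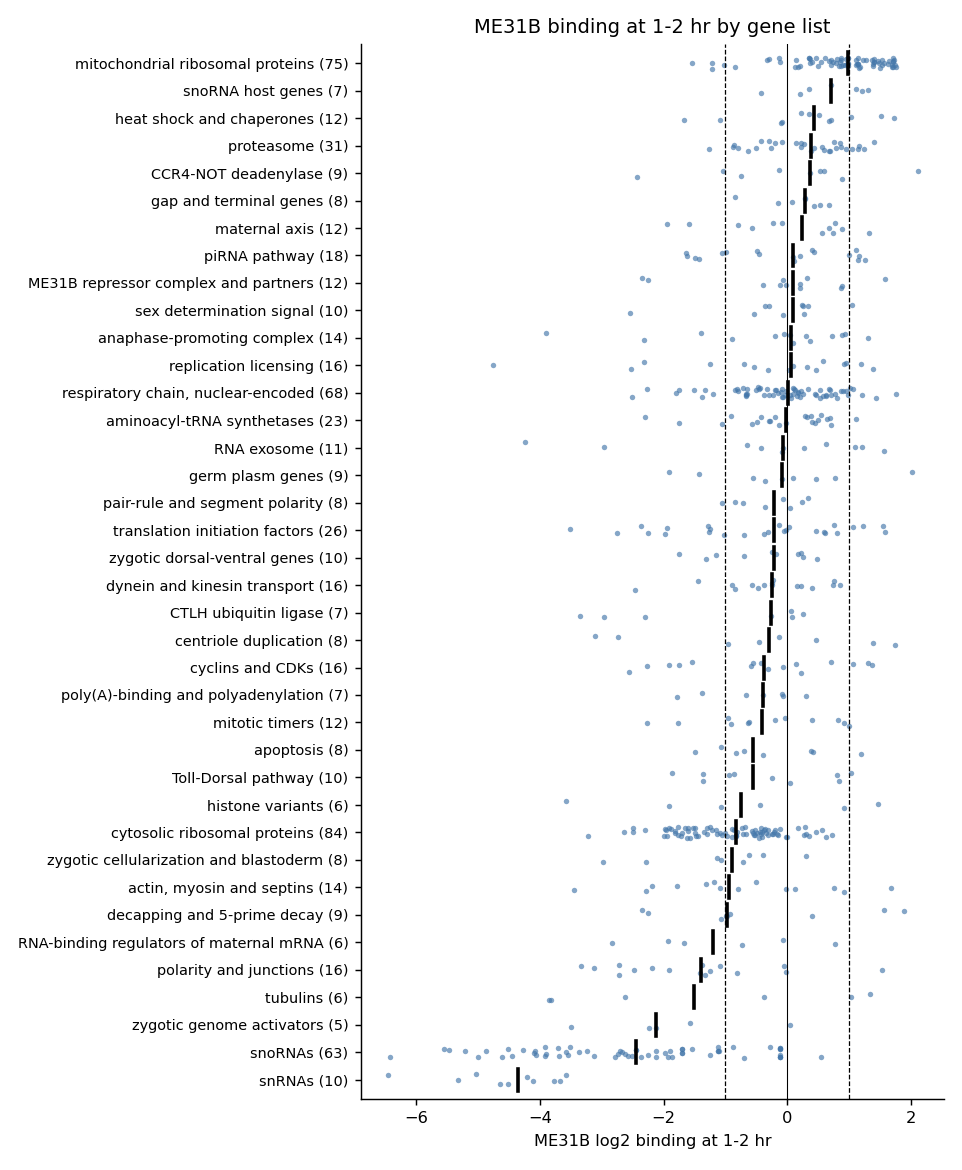
Log2 binding at 1–2 hr of the members of the gene lists (1 point per gene, number of members in parentheses, bars at the medians), ordered by the median. The PNG kinase, replication-dependent histone and CR-named non-coding lists are not drawn. Mitochondrial ribosomal proteins are at the top with a median of 0.97, and zygotic genome activators, snoRNAs and snRNAs at the bottom with −2.13, −2.45 and −4.36.

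Binding at 1–2 hr was next set against that of the neighbouring ages, which came from separate libraries. Across 6795 genes measured at both ages, Spearman's correlation with 0–1 hr was 0.82, and across 6895 genes it was 0.86 with 2–3 hr. It was 0.70 with 3–4 hr and 0.69 with 4–5 hr. Of the genes bound at least 2-fold above the median gene at 1–2 hr, 37.3% were as high at 0–1 hr and 84.4% at 2–3 hr. Those shared genes were 69.4% of the high genes of 0–1 hr and 51.0% of those of 2–3 hr. Over all genes measured at both ages, 581 of 6795 were that high at 0–1 hr and 1797 of 6895 at 2–3 hr. Of the genes at least 2-fold below at 1–2 hr, 62.2% were as low at 0–1 hr and 75.5% at 2–3 hr. Over all genes measured at both ages, 1275 of 6795 were that low at 0–1 hr and 1815 of 6895 at 2–3 hr. Genes move between these sets partly because the spread differs between ages, and genes are not independent replicates.

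From 0–1 to 1–2 hr, log2 binding rose by 1 or more in 193 genes (2.84%) and fell by 1 or more in 728 (10.7%) of 6795. From 1–2 to 2–3 hr it rose that much in 448 (6.5%) and fell in 619 (8.98%) of 6895. All 8 largest falls into 1–2 hr, with 5 FPKM or more required in the 4 libraries, were snoRNAs and snRNAs. The FPKM of RNAs shorter than the fragments is uncertain even above that minimum, which limits these values. snRNA:LU had 18.9 FPKM in the immunoprecipitate and 336 FPKM in the input at 1–2 hr, against 37.7 and 35.6 FPKM at 0–1 hr, a change of −4.16. Of 51 snoRNAs measured at both ages, 34 fell by 1 or more and 6 rose, and of 10 snRNAs 7 fell.

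Of the 8 largest rises, 3 were snoRNAs. Each of the 3 had a log2 binding of −0.12 at 1–2 hr, the value that 6 of 67 snoRNAs share, so their rises are uncertain. The others were lok, the checkpoint kinase Chk2, CG45086, Atf6, a transcription factor of endoplasmic reticulum stress, PIP4K, a lipid kinase, and CG2614. They rose by 1.94, 1.86, 1.86, 1.78 and 1.73. lok had 360 FPKM in the immunoprecipitate and 397.5 FPKM in the input at 1–2 hr, against 77.7 and 311.3 FPKM at 0–1 hr. Its immunoprecipitate level thus differed far more than its input level, and its log2 binding of −0.20 at 1–2 hr stood against −2.14 at 0–1 hr. Atf6 had 22.9 FPKM in the immunoprecipitate and 8.47 FPKM in the input at 1–2 hr, against 62.9 and 79.5 FPKM at 0–1 hr. There the input was lower at 1–2 hr by more than the immunoprecipitate.

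**Figure D3:**
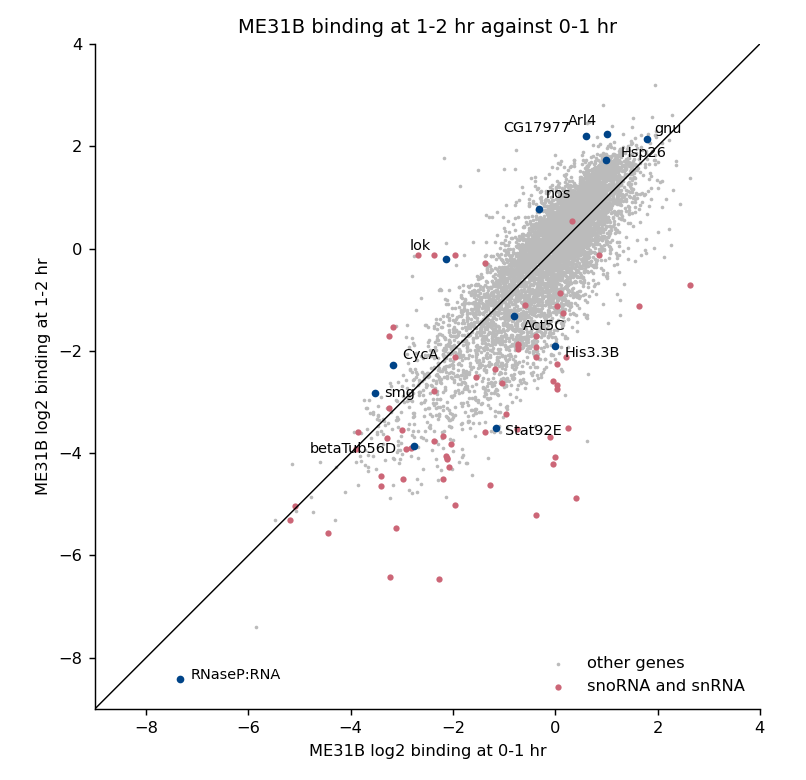
Log2 binding at 1–2 hr (vertical axis) against 0–1 hr (horizontal axis), 1 point per gene over the 6795 genes measured at both ages, with snoRNAs and snRNAs in red, named genes in blue and the line of equal values. lok and nos lie above the line, and Stat92E, His3.3B, Act5C and most snoRNAs below it.

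Several regulators were on the way between the 2 neighbouring ages. nos had a log2 binding of −0.32 at 0–1 hr, 0.77 at 1–2 hr and 2.07 at 2–3 hr. Its immunoprecipitate held 840 FPKM at 0–1 hr, 1169.7 FPKM at 1–2 hr and 1601 FPKM at 2–3 hr, and its input 953 FPKM, 660 FPKM and 351 FPKM at these ages. CycA was at −3.16, −2.27 and 0.25 in the same order, CycB at −2.85, −1.92 and 0.31, and smg at −3.53, −2.83 and −0.58. For CycA and CycB, the step from 1–2 to 2–3 hr, by 2.44 and 2.14, was larger than the step before it, by 0.89 and 0.93. grp, the checkpoint kinase Chk1, and twin rose by 1.66 and 1.13 into 1–2 hr.

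Germ plasm genes had higher binding at 1–2 hr than at 0–1 hr in 8 of 9 cases, against 53.7% of all genes measured at both ages. From 1–2 to 2–3 hr it was higher in 9 of 9, against 65.1% of all genes, with medians of −0.68, −0.08 and 0.71 at the 3 ages. gnu was at 1.80, 2.15 and 2.94. Cytosolic ribosomal proteins went the other way. Binding was lower at 1–2 hr than at 0–1 hr in 78 of 84 genes, against 46.3% of all genes, but lower by 1 or more in only 12 of 84, near the 10.7% of all genes. From 1–2 to 2–3 hr it was lower in 78 of 84 genes again, against 34.9% of all genes, and the median was −0.38 at 0–1 hr, −0.84 at 1–2 hr and −1.45 at 2–3 hr. Zygotic genome activators fell by 1 or more in 3 of 5 genes, against 10.7% of all genes. eIF4AIII, a core protein of the exon junction complex, had 9.95 FPKM in the immunoprecipitate and 109.3 FPKM in the input at 1–2 hr, against 49.9 and 86.8 FPKM at 0–1 hr. It fell by 2.58, Stat92E by 2.34, geminin, which blocks relicensing of origins, by 1.94, and His3.3B by 1.91.

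**Figure D4:**
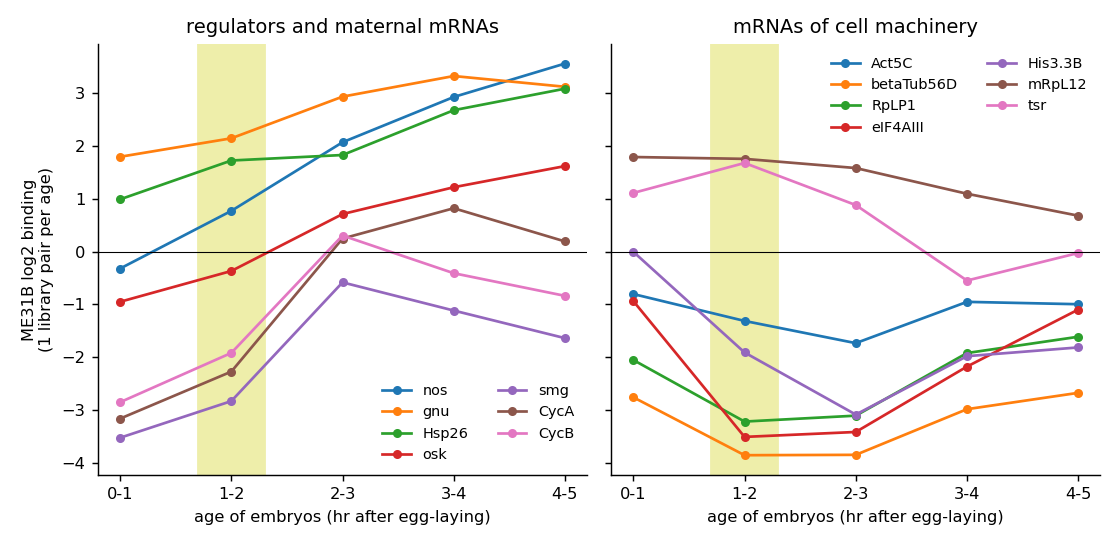
Log2 binding (vertical axis, centred on the median gene of each age) of 14 named genes at the 5 ages (horizontal axis, hr after egg-laying), 1 library pair per age, with 1–2 hr shaded. nos, CycA, CycB and smg are higher at 2–3 hr than at 1–2 hr, whereas eIF4AIII and betaTub56D are close to their 1–2 hr values of −3.51 and −3.86.

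Transcript length was not used to choose the members. Across 6630 protein-coding genes, Spearman's correlation between binding at 1–2 hr and transcript length was −0.42, between −0.60 at 0–1 hr and −0.18 at 2–3 hr. At 1–2 hr it was −0.43 with the coding length, −0.19 with the length of the 3′ UTR and −0.25 with the number of exons. In 5 groups of equal size by length, the longest transcripts (3806 nt and more) had a median of −1.04, and the shortest (up to 1149 nt) a median of 0.46. The next 2 groups after the shortest were at 0.50 and 0.38 and the fourth was at −0.16, so the drop lay in the longer transcripts. Cytosolic ribosomal proteins, with a median of −0.84, and mitochondrial ones, with 0.97, lay on either side of the shortest group.

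ME31B and PABP binding were compared at 1–2 hr over 6238 genes measured in both strains. Spearman's correlation was 0.57, and 0.48 with transcript length held constant. Of these genes, 923 (14.8%) were bound by PABP at least 2-fold above its median gene and 1147 (18.4%) at least 2-fold below. In the most bound of 5 equal groups by ME31B binding, the median PABP binding was 0.68 and 30.5% of genes were 2-fold above, while in the least bound group the median was −1.20 and 57.7% were 2-fold below. With the PABP libraries of other ages, which leave out the 1–2 hr w1118 input, the correlation was 0.45 at 0–1 hr and 0.36 at 2–3 hr, and 0.36 and 0.28 with transcript length held constant. The medians of the most and least bound groups were then 0.42 and −0.94 at 0–1 hr, and 0.30 and −0.91 at 2–3 hr. Age and library differ together in these values and cannot be told apart. The 0–1 hr PABP values also rest on the other low w1118 input.

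Some genes departed from this relation. Cytosolic ribosomal proteins had a median of −0.84 for ME31B, against 2.13 for PABP, and eIF-5A was at −2.76 for ME31B and 2.14 for PABP. nos went the opposite way, with 0.77 for ME31B and −1.70 for PABP, as did exu, with 0.88 for ME31B and −0.90 for PABP. me31B was above the median gene for both, at 0.86 for ME31B and 2.26 for PABP. Without the 1–2 hr w1118 input, in the PABP libraries of 0–1 hr and 2–3 hr, the ribosomal protein median was 1.15 and 1.90, eIF-5A was at 1.59 and 2.32, nos at −2.62 and −1.70, exu at −1.99 and −1.31, and me31B at 2.13 and 1.18. Of these, the 0–1 hr values rest on the other low w1118 input.

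The RNA level over the next hour was taken from the inputs of w1118 embryos, so that it shared no library with ME31B binding. From 1–2 to 2–3 hr, relative to the median gene, 781 of 6227 genes (12.5%) were at least 2-fold higher and 1419 (22.8%) at least 2-fold lower. Spearman's correlation of this change with ME31B binding at 1–2 hr was −0.50, and −0.63 with transcript length held constant. In the most bound of the 5 groups, the median change was −0.94 and 48.0% of genes were at least 2-fold lower at 2–3 hr. In the least bound group it was 0.65, with 4.01% of genes as much lower. Without the 1–2 hr w1118 input, the correlation was −0.54 with the change from 0–1 to 2–3 hr and 0.0647 with the change from 2–3 to 3–4 hr, or −0.65 and 0.0908 with length held constant. For the change from 0–1 to 2–3 hr, which rests on the other low w1118 input, the most bound group had a median of −1.25 and the least bound group 0.92. From 2–3 to 3–4 hr these medians were 0.11 and −0.12.

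For single genes, the change from 1–2 to 2–3 hr was read in the inputs of both strains, and its size differed between them. gnu, with a log2 binding of 2.15, changed by −2.58 in w1118 inputs and by −0.79 in eGFP-ME31B inputs. pgc, with 2.01, changed by −2.73 in w1118 and −0.61 in eGFP-ME31B inputs, and Hsp26, with 1.73, by −2.77 and −1.12. CG6770, with 2.23, was the most alike in both strains of these 4, at −3.54 in w1118 and −3.05 in eGFP-ME31B inputs. At the other end, betaTub56D, with −3.86, changed by 1.40 in w1118 and 0.40 in eGFP-ME31B inputs, and Spt6, with −5.31, by 1.25 and 0.57. Other genes departed from the relation. mRpL12 was highly bound and changed by −0.48 and −0.32 in the same order, tsr, at 1.68, by 0.85 and 0.21, and osk, near the median gene, by −2.63 and −1.17. The w1118 change from 0–1 to 2–3 hr leaves out the 1–2 hr input but rests on the other low one. It was −2.54 in gnu, −3.03 in pgc, −3.73 in Hsp26 and −3.66 in CG6770, and 1.47 in betaTub56D and 1.42 in Spt6. In mRpL12, tsr and osk it was −0.91, 1.46 and −2.63. The eGFP-ME31B input of 1–2 hr is also the divisor of binding, so its changes are given for single genes and were not correlated with binding. In whole embryos, decay and new transcription, like fewer cells of a type and less RNA per cell, cannot be told apart from these levels.

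**Figure D5:**
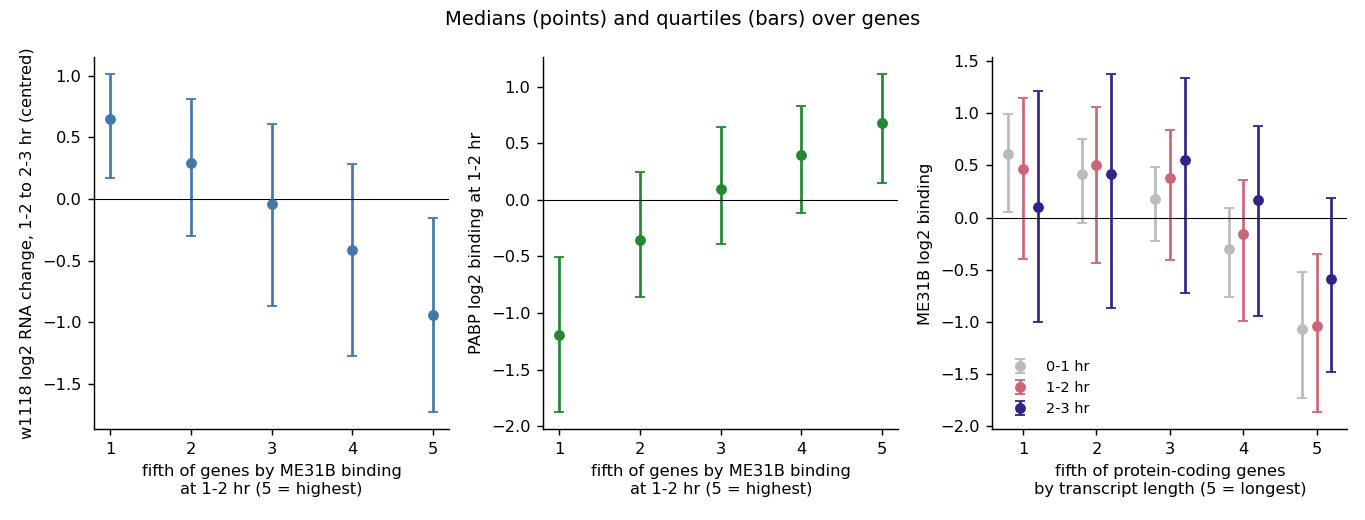
Medians (points) and quartiles (bars) over genes, in 5 equal groups by ME31B binding at 1–2 hr for the w1118 RNA change from 1–2 to 2–3 hr (left) and PABP binding at 1–2 hr (middle), and in 5 equal groups by transcript length for ME31B binding at 3 ages (right), all on log2 scales. The RNA change goes down to a median of −0.94 and PABP binding up to 0.68 in the group most bound by ME31B.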

How the data were processed

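The authors deposited FPKM values per gene and library, made with STAR 2.5.2a on dm6 (with the C. elegans genome for spiked-in worm RNA) and Cufflinks 2.2.1 from 50-base single-end reads after ribosomal RNA depletion. Immunoprecipitate FPKM was divided by input FPKM, as in the study, and the log2 ratio was centred on the median gene, with a minimum of 0.5 FPKM in both libraries and no pseudocount. The study made 2 biological replicates. With 1 library for each condition here, no p-value was computed. Embryos of png mutants were not used here.

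Depth was estimated from the FPKM value of 1 read in transcripts of at least 1500 nt, taking fragments as 200 nt, and gave counting intervals for transcripts of at least 400 nt. Of 6954 members, 6900 matched Ensembl's BDGP6.54 annotation (release 115, dm6 coordinates), which gave positions, classes and longest transcripts. Ratios of the 2 strains' tables, quantified separately, were compared only by rank or relative to each table's median gene.

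Named genes were 25 that the study names for an RNA measurement, the 10 highest and 10 lowest by binding with at least 10 FPKM in the input (of 5611), the 8 largest rises and 8 largest falls from 0–1 to 1–2 hr with at least 5 FPKM in 4 libraries (of 5508), up to 2 highest and 2 lowest of each of 41 gene lists, and 3 genes on each side of the minimum. brat, grp, geminin and the 6 protein-coding genes next lowest after Spt6 fall outside this rule and were chosen after their values were seen. The members and lists were chosen with earlier results of these data known, and 13 genes were taken out of the lists after their values were seen. The alternatives tried are given in the closing section. The scripts were tested on simulated data, and ran under Python 3.11.15 with pandas 2.3.3, numpy 2.4.6, matplotlib 3.10.9 and scipy 1.17.1.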

Additional observations from a re-analysis of the deposited data

Results flagged for a closer look

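nos had opposite signs at the 2 youngest ages, with a log2 binding of 0.77 at 1–2 hr against −0.32 at 0–1 hr, each by 0.2 or more from the median gene. It was the one gene of the 25 named by the study to do so. The difference of 1.09 was not tested, since each age has 1 library pair.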

How the results depend on the processing

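No paired analysis was possible because each condition has 1 library. Of the alternatives, adding 0.5 FPKM before the ratio, the filter on all 10 libraries of the table and the use of protein-coding genes only left all 9 main results close to the reported values. With no minimum, the correlations with 0–1 hr and 2–3 hr were 0.76 and 0.80, and 1455 genes changed by 1 or more from 0–1 to 1–2 hr, against 921. With a minimum of 5 FPKM, 725 genes were at least 2-fold above, and the correlations with PABP binding and with length were 0.49 and −0.37. With the w1118 input as divisor, the span was 43.2-fold, the correlations with 0–1 hr, 2–3 hr and length were 0.68, 0.77 and −0.36, 2331 genes changed from 0–1 to 1–2 hr, and the rise of snoRNA:Psi18S-1377c became a fall of −2.89. Centred on Act5C, 4123 genes were at least 2-fold above and 552 at least 2-fold below, and the median of the regulators of maternal mRNA was 0.11. Of alternatives chosen after seeing the data, the relation to w1118 RNA was −0.54 with the change from 0–1 to 2–3 hr and 0.0647 with the change from 2–3 to 3–4 hr, and the relation to PABP was 0.45 with its 0–1 hr and 0.36 with its 2–3 hr libraries. The cause was not tested. The alternatives that use 0–1 hr libraries rest on the low 0–1 hr w1118 input. Depth limits values near 0.5 FPKM and those of RNAs shorter than the fragments.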
